A study of Mus musculus with 4 samples.

Results

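The genes described here are 36 mouse genes of mitochondrial and peroxisomal fatty acid oxidation, and the measurement is the occupancy of the corepressor TLE3 at chromatin near them. The genes were taken from a fixed list of pathway members. Their regions were those for which the deposited tables named a member as the nearest gene, at most 50 kb from its start site. By this rule 23 of the 36 genes held 57 regions, out of 69599 regions in all. TLE3 was mapped by chromatin immunoprecipitation and sequencing (ChIP-seq) with an anti-TLE3 antibody in adipocytes from 3 fat depots. These were brown adipose tissue (BAT, with interscapular, cervical and axillary fat pooled), epididymal white adipose tissue (eWAT) and inguinal white adipose tissue (iWAT). There was 1 TLE3 library per depot, and 1 input library, made without antibody, came from iWAT adipocytes. All cultures began from stromal-vascular cells of male NMRI mice aged 4 to 5 weeks, pooled from 10 to 15 animals. They were plated in medium with serum, ascorbate, 30 nM insulin and 1 µM rosiglitazone, an agonist of the adipocyte receptor PPARγ. Harvest was on day 8, and cultures compared were more than 50% differentiated. Cells were crosslinked in 2 steps, 15 min in 2 mM disuccinimidyl glutarate (DSG) followed by 30 min in 1% formaldehyde. No label names a genetic change, and the cells are taken here to have their own TLE3. Because each depot has 1 library from pooled animals, depot and library cannot be told apart, and every interval below covers counting error alone.

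Fatty acids enter mitochondria as carnitine esters and are then shortened in a repeating cycle of dehydrogenation, hydration, oxidation and thiolysis. The dehydrogenases pass their electrons through the electron transfer flavoprotein to the respiratory chain, and peroxisomes run a related cycle on very long and branched chains. In brown and beige fat this pathway feeds heat production, while white adipocytes mainly store the same fatty acids. TLE3 belongs to the Groucho family, which does not bind DNA itself and is brought to chromatin by transcription factors. The series title sets loss of TLE3 beside the mitochondrial program of beige adipocytes. The binding data give the sites in cultures for which no such loss is labelled.

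The deposited value of a region is its read number after the authors brought the libraries to a common size, and is called scaled reads here. A single read was worth 2.765 scaled reads in BAT, 0.883 in eWAT, 0.526 in iWAT and 0.651 in the input, so the BAT library was the shallowest. The fewest reads behind a listed region were 6 in BAT, 17 in eWAT and 29 in iWAT. Regions of the adipocyte genes chosen to check the labelled cell type were present at 8 of 8 genes, with a BAT region at 7, an eWAT region at 8 and an iWAT region at 7. Of 6 brown fat genes, 5 had a listed region in each depot. Ucp1, the brown fat uncoupling protein, had 113 (BAT), 212 (eWAT) and 178 (iWAT) scaled reads, with 11.1 in the input. Genes of other cell types also had listed regions, as had 21.4% (BAT), 46.0% (eWAT) and 42.4% (iWAT) of all protein-coding genes. Listed regions stood at 0 of 5 macrophage genes in BAT, 4 in eWAT and 2 in iWAT, and at 0, 4 and 3 of 7 skeletal muscle genes in the same order. For 6 preadipocyte and fibroblast genes these counts were 3, 5 and 3, and for 5 endothelial genes 4, 4 and 4. Binding near a gene does not measure its expression, and the part of other cells in the values below was not tested.

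TLE3 regions were found beside roughly as large a share of these genes as beside genes at large, or somewhat more. In BAT 13 of 36 members (36.1%) had a listed region, against 21.4% of 21900 protein-coding genes. The eWAT list gave 22 members (61.1%), against 46.0% of protein-coding genes. In iWAT the count was 18 members (50.0%), against 42.4%. Any depot's list reached 23 members (63.9%, against 51.6%), and all 3 lists reached 9 (25.0%, against 19.1%). The 51.6% is also the share to set beside the counts of genes with regions by role below. The 9 were Cpt1a, Crot, Acadl, Acad11, Ech1, Etfa, Hsd17b4, Acaa1a and Acaa1b. Cpt2, Crat, Acadsb, Hadh, Echs1, Acat1, Eci2 and Etfb were listed in both white depots and not in BAT, and Eci1 and Acox2 in eWAT alone. Acadm, Acaa2 and Fabp3 were listed in BAT and eWAT, and Hadha in BAT and iWAT.

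The count of members depended on the length of the lists. With eWAT and iWAT cut to their strongest 15042 regions, as many as the BAT list holds, 9 members remained in eWAT (25.0%, against 21.7% of protein-coding genes) and 5 in iWAT (13.9%, against 19.3%). The full BAT list, at 13 members, was then the highest of the 3 counts. When a region had to reach 30 scaled reads in its own library, 4 members were left in BAT (11.1%, against 12.7% of protein-coding genes), 15 in eWAT (41.7%, against 34.3%) and 11 in iWAT (30.6%, against 31.3%). These shares are descriptions, with no test.

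**Figure D1:**
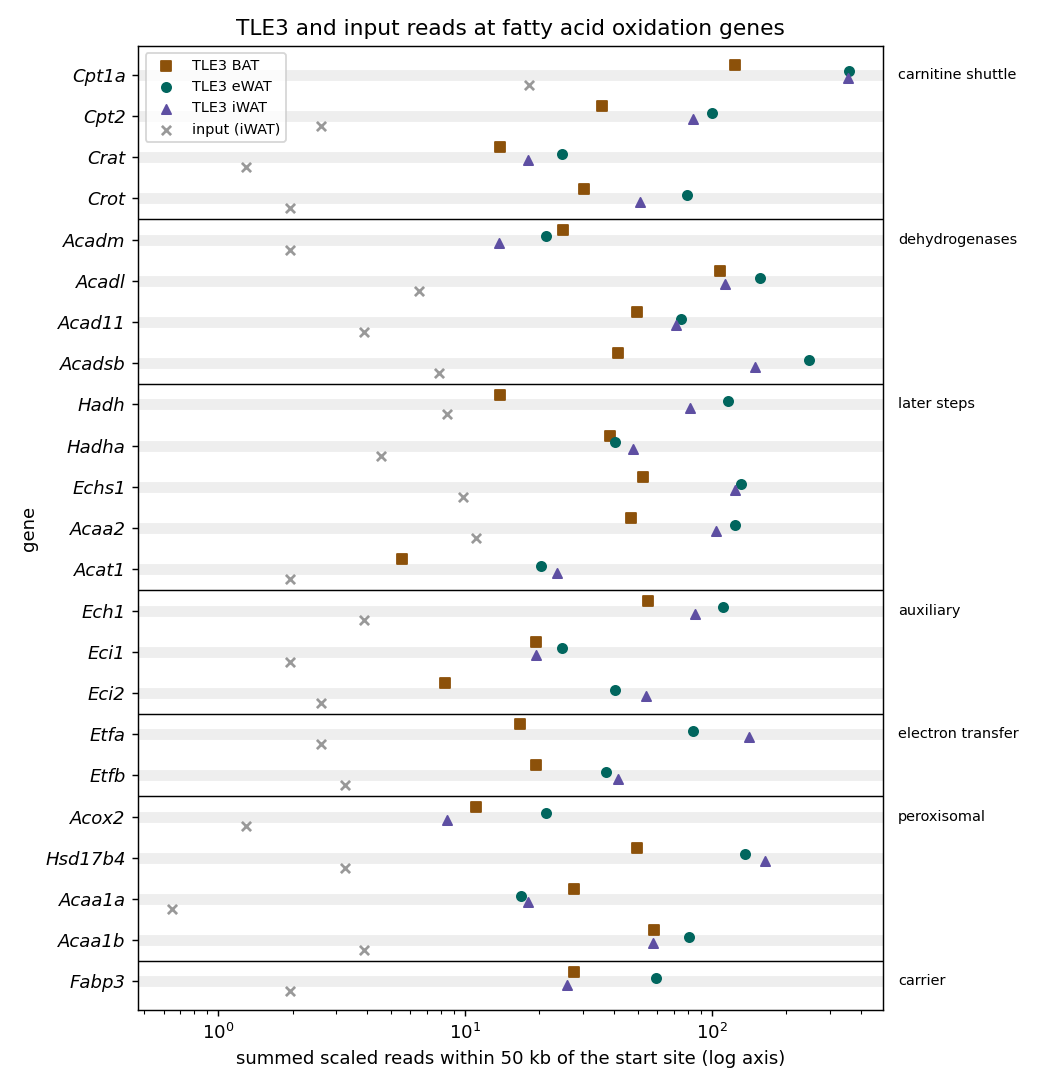
Summed scaled reads (log axis) within 50 kb of the start site for the 23 genes with a region, grouped by role, with 1 point per library for BAT, eWAT, iWAT and the iWAT input. Cpt1a lies farthest to the right in all 3 TLE3 libraries. The BAT point is the lowest of the 3 TLE3 points at most genes but the highest at Acadm and Acaa1a, on 9 and 10 BAT reads.

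Regions of the pathway lay close to start sites. Of the 57 regions, 11 (19.3%) lay no more than 1 kb from a start site, against 5.37% of the 33391 regions of all protein-coding genes chosen by the same distance rule. Within 10 kb were 39 (68.4%), against 36.6%, and the median distance was 6.13 kb, against 15.2 kb. The deposited annotation placed 7 regions (12.3%, against 3.76%) in a promoter, 33 (57.9%, against 52.7%) in an intron and 16 (28.1%, against 39.5%) in intergenic sequence. The remaining region, at Fabp3, was annotated at the transcription end. The 7 promoter regions had Cpt2, Crot, Acadsb, Acaa2, Ech1, Eci2 and Etfb as the nearest gene. At Acadsb, Acaa2 and Eci2 the transcript named for the promoter was not the one named for their intron regions. Whether it is of another gene is not stated, and these regions were centred within 300 bases of the member's start site. The median region had 13.8 scaled reads in BAT, against 8.30 over all protein-coding genes. Both stand for few reads, since 1 BAT read was worth 2.765 scaled reads and 0 reads allow up to 8.30. The medians in eWAT were 29.1 against 28.3, and in iWAT 26.3 in both sets. The median input was 1.30 in both.

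**Figure D2:**
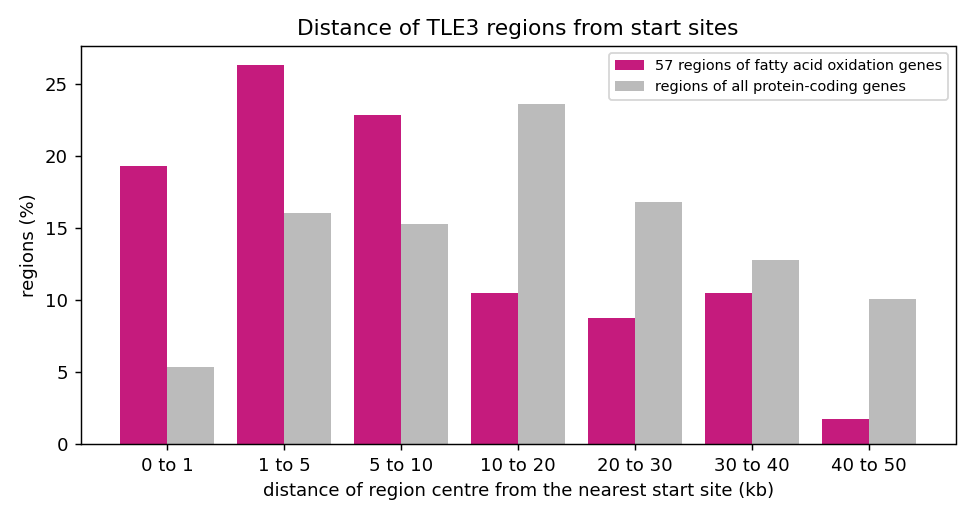
Share of regions (%) by distance of the region's centre from the nearest start site (kb), for the 57 regions of fatty acid oxidation genes and for 33391 regions of all protein-coding genes. Up to 1 kb stand 19.3% of the members' regions and 5.37% of all regions, and from 10 to 20 kb 10.5% and 23.6%.

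At 5 genes a region was centred within 300 bases of the start site, and 4 of them are shown with their promoter sequence. The other one is Acaa2. The windows come from RefSeq on the GRCm38.p6 build, run from 250 bases before to 50 bases after the start site and read 5′ to 3′ on the gene's strand. The TLE3 regions are on the mm9 build and were not converted, so the windows show the start site and not the exact region. Capitals mark matches to the motifs searched. In these windows the matches were the GC box GGGCGG of SP and KLF factors and the C/EBP core TTGCNNAA, on either strand.
Cpt2, minus strand of chr4:107923540-107923839: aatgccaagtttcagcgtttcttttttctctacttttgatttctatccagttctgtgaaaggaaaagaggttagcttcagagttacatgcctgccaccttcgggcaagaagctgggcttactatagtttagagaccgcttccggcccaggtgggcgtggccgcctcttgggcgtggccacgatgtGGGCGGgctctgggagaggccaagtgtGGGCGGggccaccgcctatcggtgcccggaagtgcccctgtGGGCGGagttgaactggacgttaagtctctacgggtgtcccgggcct
Acadsb, plus strand of chr7:131410351-131410650: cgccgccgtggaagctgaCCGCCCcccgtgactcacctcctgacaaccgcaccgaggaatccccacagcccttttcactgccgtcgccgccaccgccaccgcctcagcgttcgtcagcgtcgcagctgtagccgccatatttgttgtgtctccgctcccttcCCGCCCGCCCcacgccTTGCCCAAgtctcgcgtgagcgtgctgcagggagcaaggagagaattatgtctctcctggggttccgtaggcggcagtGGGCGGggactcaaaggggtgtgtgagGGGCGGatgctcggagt
Ech1, plus strand of chr7:28825088-28825387: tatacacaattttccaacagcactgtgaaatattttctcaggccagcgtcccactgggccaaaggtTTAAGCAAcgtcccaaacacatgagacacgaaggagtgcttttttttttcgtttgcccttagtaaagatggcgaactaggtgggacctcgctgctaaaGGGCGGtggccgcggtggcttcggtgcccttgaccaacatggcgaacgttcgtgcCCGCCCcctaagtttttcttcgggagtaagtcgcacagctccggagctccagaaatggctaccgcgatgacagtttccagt
Eci2, minus strand of chr13:34994095-34994394: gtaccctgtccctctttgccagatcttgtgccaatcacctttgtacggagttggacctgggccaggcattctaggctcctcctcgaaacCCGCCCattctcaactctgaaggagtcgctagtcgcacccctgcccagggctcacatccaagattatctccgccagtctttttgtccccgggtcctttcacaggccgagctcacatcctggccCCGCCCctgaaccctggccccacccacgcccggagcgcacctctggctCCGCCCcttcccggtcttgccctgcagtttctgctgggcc

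All 4 windows held the GC box, at 3 positions in Cpt2, 5 in Acadsb, 2 in Ech1 and 3 in Eci2. Acadsb also held a C/EBP core at positions -72 to -65 from the start site, and Ech1 one at -184 to -177. Sequence windows were matched for 29 of the 36 genes, which gave 30 windows. The GC box was in 21 of the 30 (70.0%), against 35.7% of all 32851 promoter windows. Their median GC content was 60.7%, against 52.7%. The C/EBP core was in 6 windows (20%, against 10.8%) and an NRF1 element (GCGC, any base, TGCGC) in 4 (13.3%, against 4.60%). The relaxed DR1 element (AGGNCA, any base, AGGNCA), the ERR half-site TCAAGGTCA and the TCF/LEF element CTTTGAT were in 0 windows, where 0.381%, 0.423% and 3.73% of all windows held them. The EBF palindrome (TCCC, any 2 bases, GGGA) and the NFI palindrome (TTGGC, any 5 bases, GCCAA) were also in 0, against 0.904% and 0.0365%. A match is a run of letters and not a bound site, and no match says only that these letters are not in the window.

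At the 4 promoters the white libraries had more scaled reads than BAT on the authors' scale, while relative to the median gene every BAT interval there spanned 0. The Cpt2 region, at chr4:107596353-107596583 (mm9) and centred at -274 bases from the start site, had 11.1 (BAT), 45.9 (eWAT) and 48.4 (iWAT) scaled reads, with 0.650 in the input. Cpt2 removes the carnitine again inside the mitochondrion. At Ech1, a dienoyl-CoA isomerase, the promoter region at chr7:29610009-29610239 had 24.9 (BAT), 68.0 (eWAT) and 47.3 (iWAT), with 3.25 in the input. Acadsb acts on short branched chains, as in isoleucine breakdown. Its region at chr7:138554056-138554286 had 19.4 (BAT), 45.0 (eWAT) and 31.0 (iWAT), with 3.90 in the input. Eci2, an enoyl-CoA isomerase, had 8.30 (BAT), 15.9 (eWAT) and 29.9 (iWAT) at chr13:35086139-35086369, with 1.95 in the input. The Eci2 region was listed in iWAT alone and the Acadsb region in eWAT alone.

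In the carnitine shuttle 4 of 6 genes had regions. Their sum came to 205 (BAT), 564 (eWAT) and 509 (iWAT) scaled reads, with 24.1 in the input. Cpt1a, which attaches carnitine at the outer mitochondrial membrane and sets the pace of entry, led with 124 (BAT), 360 (eWAT) and 357 (iWAT), with 18.2 in the input. Its 6 regions all lay downstream of the start site, in introns 1 and 3. They were not alike. The strongest, in intron 1 at chr19:3334179-3334409 (mm9), had 44.2 (BAT), 125 (eWAT) and 142 (iWAT). A region 22.1 kb into the gene, from 3345331 to 3345561, had 2.77 (BAT), 21.2 (eWAT) and 67.3 (iWAT) and was listed in iWAT alone. A neighbouring pair at 30.3 and 30.8 kb had 24.9 and 33.2 in BAT, 70.6 and 65.3 in eWAT and 45.2 at each in iWAT.

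Cpt1a had more TLE3 in its gene body than the rule counts. Another 3 regions lay in Cpt1a introns but nearer to the start site of Mtl5. The strongest, at chr19:3376962-3377192, had 38.7 (BAT), 136 (eWAT) and 96.2 (iWAT) scaled reads, with 3.25 in the input, and was listed in all 3 depots. Its eWAT value exceeded that of any region credited to Cpt1a. Of the other shuttle genes, Cpt2 summed to 36 (BAT), 99.8 (eWAT) and 83.6 (iWAT) over 3 regions. Crot, the peroxisomal octanoyltransferase, had 30.4 (BAT), 79.5 (eWAT) and 51 (iWAT), most of it at an intergenic region 31.5 kb upstream. Crat, the acetyltransferase, had 1 intronic region with 13.8 (BAT), 24.7 (eWAT) and 17.9 (iWAT). Cpt1b, the isoform of muscle and brown fat, and Cpt1c, the isoform of brain, had no region.

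**Figure D3:**
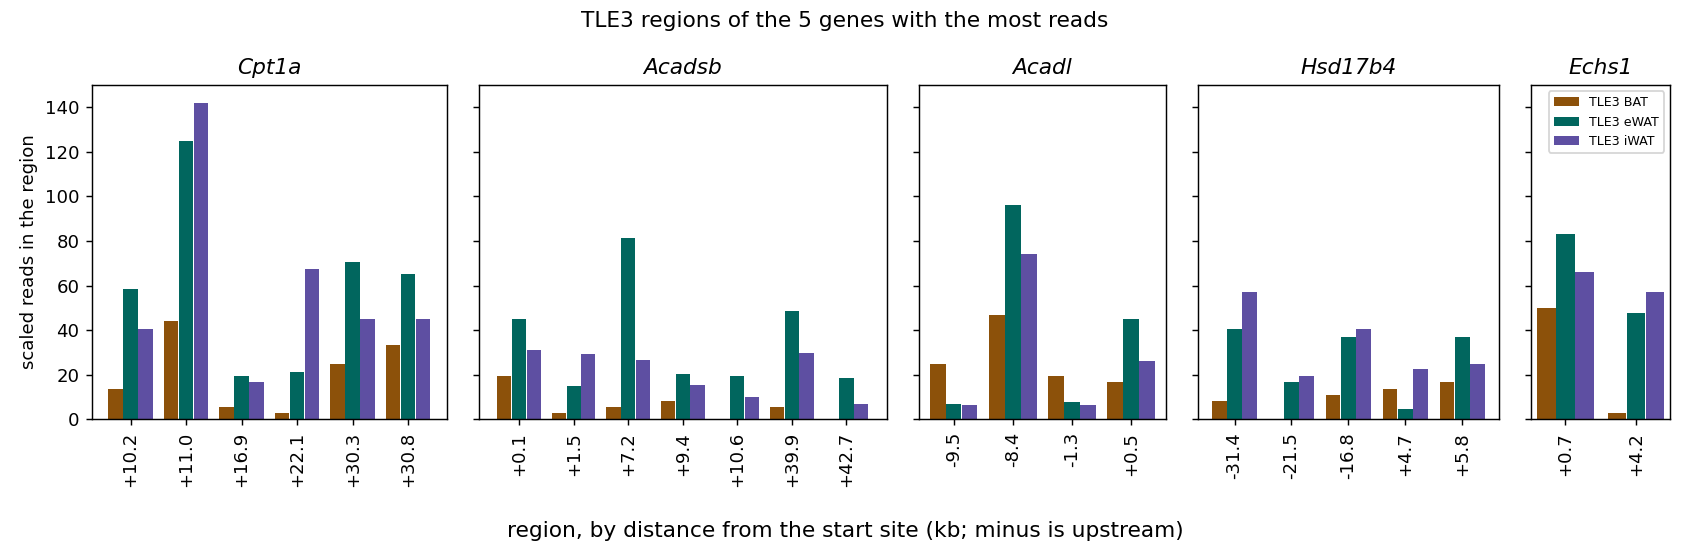
Scaled reads in each region of the 5 genes that average 100 scaled reads or more, ordered by signed distance from the start site (kb, minus is upstream), with bars for BAT, eWAT and iWAT. Cpt1a regions all lie downstream, with the peak of 142 in iWAT, and 2 of the 4 Acadl regions have taller BAT bars than white bars.

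The acyl-CoA dehydrogenases catalyse the first step of the cycle, and 4 of the 9 had regions, against 51.6% of protein-coding genes. Values are given at listed regions only, so reads at the other dehydrogenases are not known. Acads, Acadvl, Acad9, Acad10 and Acad12 had no region, which leaves the short-chain and very long-chain enzymes without one. Acadl, the long-chain enzyme of mouse, had 108 (BAT), 156 (eWAT) and 113 (iWAT) scaled reads, with 6.50 in the input. Acadsb had 41.5 (BAT), 248 (eWAT) and 149 (iWAT), with 7.80 in the input, and 7 regions, with 0 listed in BAT but 7 in eWAT and 4 in iWAT. Acad11 had 49.8 (BAT), 75 (eWAT) and 71.5 (iWAT) over 3 intronic regions. Another region in an Acad11 intron, credited to Ackr4, had 0 (BAT), 16.8 (eWAT) and 16.8 (iWAT). Acadm, the medium-chain enzyme, had 1 intergenic region 2.78 kb upstream with 24.9 (BAT), 21.2 (eWAT) and 13.7 (iWAT). It was 1 of 2 members where BAT was the highest of the 3 libraries. That order rests on 9 BAT reads at Acadm, and both members had too few reads for the ratios below.

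Acadl and Acadsb were split at the level of regions too. At Acadl the strongest region, 8.42 kb upstream at chr1:66918192-66918422, had 47.0 (BAT), 96.2 (eWAT) and 74.1 (iWAT) scaled reads and was listed in all 3 depots. Flanking it were 2 regions listed in BAT alone. The first, 9.51 kb upstream from 66919277 to 66919507, had 24.9 (BAT), 7.06 (eWAT) and 6.31 (iWAT), with 0 in the input. The second, 1.34 kb upstream from 66911111 to 66911341, had 19.4 (BAT), 7.95 (eWAT) and 6.31 (iWAT), also with 0 in the input. They rest on 9 and 7 BAT reads. At Acadsb the strongest region, 7.23 kb into intron 1 at chr7:138561226-138561456, had 5.53 (BAT), 81.2 (eWAT) and 26.8 (iWAT). A BAT value of 0 at 2 other Acadsb regions, 10.6 and 42.7 kb downstream, allows up to 8.30 scaled reads.

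In the later mitochondrial steps 5 of 6 genes had regions. Echs1, the short-chain enoyl-CoA hydratase, had 52.5 (BAT), 131 (eWAT) and 124 (iWAT) scaled reads, with 9.76 in the input. Its intron 1 region, 0.651 kb from the start site at chr7:147301556-147301786, had 49.8 (BAT), 83.0 (eWAT) and 66.2 (iWAT). This was the highest BAT value of any member region, yet the region was not listed in BAT, and the input there was 6.51. A second Echs1 region in intron 3 had 2.77 (BAT), 47.7 (eWAT) and 57.3 (iWAT), so nearly all BAT reads of the gene lay at the first. Acaa2, the mitochondrial ketoacyl thiolase, had 47.0 (BAT), 124 (eWAT) and 104 (iWAT), with 11.1 in the input. Its promoter region, at chr18:74938602-74938832, had 22.1 (BAT), 87.4 (eWAT) and 66.7 (iWAT) over an input of 7.81 and was listed in eWAT alone. A separate intergenic Acaa2 region 31.6 kb downstream was listed in BAT alone, with 19.4 (BAT), 0.880 (eWAT) and 6.31 (iWAT), on 7 BAT reads.

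Hadh, the short-chain hydroxyacyl-CoA dehydrogenase, had 13.8 (BAT), 116 (eWAT) and 81.5 (iWAT) scaled reads, with 8.46 in the input. BAT stood closer to the input, which came from iWAT, than to either white library there, on 5 BAT reads. On this scale, the authors' own, 81.6% of all genes were called lower in BAT than in eWAT. Hadha, the alpha subunit of the trifunctional protein, had 38.7 (BAT), 40.6 (eWAT) and 47.8 (iWAT), nearly level across the 3. Acat1, the acetoacetyl-CoA thiolase, had 5.53 (BAT), 20.3 (eWAT) and 23.6 (iWAT) at 1 intronic region, with 2 reads in BAT. Hadhb, the beta subunit, is the neighbour of Hadha and had no region by the rule. An intron of Hadhb nevertheless held a region listed in all 3 depots, at chr5:30498772-30499002, with 27.6 (BAT), 32.7 (eWAT) and 32.6 (iWAT), which the tables credited to Mir1960. In the same way Decr1, a dienoyl-CoA reductase, had 2 intronic regions credited to Mir6400. The first, at chr4:15865295-15865525, had 16.6 (BAT), 22.1 (eWAT) and 20 (iWAT), and the second, from 15865941 to 15866171, had 24.9 (BAT), 7.95 (eWAT) and 5.26 (iWAT). Acox3 had a region at its transcription end, at chr5:35956329-35956559, with 58.1 (BAT), 75.1 (eWAT) and 58.3 (iWAT). Thus 2 of the 13 genes without a region, Hadhb and Decr1, still had TLE3 in an intron, and Acox3 had it at or near the transcript's end.

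Among the auxiliary enzymes of unsaturated fatty acids, 3 of 5 genes had regions. Ech1 had 55.3 (BAT), 111 (eWAT) and 85.1 (iWAT) scaled reads, with 3.90 in the input. Besides its promoter it had a region 3.72 kb upstream, in an intron of another transcript, with 30.4 (BAT), 43.3 (eWAT) and 37.8 (iWAT), listed in all 3 depots. Eci1 had 19.4 (BAT), 24.7 (eWAT) and 19.4 (iWAT) at 1 intronic region. Eci2 had 8.30 (BAT), 40.6 (eWAT) and 54.1 (iWAT), and all of its BAT reads were at the promoter. Its intron 2 region leaned to eWAT, with 21.2 there against 5.26 in iWAT, and its intergenic region 22.0 kb upstream leaned to iWAT, with 3.53 in eWAT and 18.9 in iWAT. Decr2 had no region.

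Of the electron transfer flavoprotein genes, Etfa, the alpha subunit, had 16.6 (BAT), 83.9 (eWAT) and 141 (iWAT) scaled reads, with 2.60 in the input. Most of it lay in intron 1, at chr9:55356534-55356764, with 16.6 (BAT), 63.6 (eWAT) and 125 (iWAT). Etfb, the beta subunit, had 19.4 (BAT), 37.1 (eWAT) and 41.5 (iWAT) at its promoter, and a region in its intron credited to Mir7051 had 24.9 (BAT), 32.7 (eWAT) and 15.2 (iWAT). Etfdh, which hands the electrons on to ubiquinone, had no region.

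The peroxisomal branch had regions at 4 of 6 genes and took 147 (BAT), 254 (eWAT) and 249 (iWAT) scaled reads. Hsd17b4, the D-bifunctional enzyme, had 49.8 (BAT), 136 (eWAT) and 164 (iWAT) over 5 regions, with 3.25 in the input. Acaa1a and Acaa1b are close copies encoding the peroxisomal thiolase, and the sources do not say how reads that map to more than 1 place were treated. Acaa1b had 58.1 (BAT), 80.4 (eWAT) and 57.8 (iWAT) at 2 intergenic regions upstream, and its strongest, 8.02 kb away at chr9:119074116-119074346, had 44.2 (BAT), 45.9 (eWAT) and 35.2 (iWAT). Acaa1a had 27.6 (BAT), 16.8 (eWAT) and 17.9 (iWAT) at 1 region in intron 5, with BAT the highest on 10 BAT reads. Acox2, a branched-chain acyl-CoA oxidase, had 11.1 (BAT), 21.2 (eWAT) and 8.41 (iWAT). A stronger region at its transcription end, credited to Kctd6, had 13.8 (BAT), 51.2 (eWAT) and 41.5 (iWAT) and was listed in both white depots. Ehhadh, the L-bifunctional enzyme, had no region. Fabp3, a cytosolic fatty acid carrier of heart and brown fat, had 27.7 (BAT), 59.2 (eWAT) and 25.8 (iWAT). Its region 9.52 kb upstream, at chr4:129976388-129976618, had 24.9 (BAT), 30.0 (eWAT) and 9.46 (iWAT) and held nearly all BAT reads of the gene.

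The libraries were then compared gene by gene. Log2 ratios of summed reads were set relative to the median gene, whose log2 ratio was −1.54 for BAT over eWAT, −1.49 for BAT over iWAT and 0.16 for eWAT over iWAT. A gene was called where it was past 1.5-fold with its whole 95% interval on one side of 0. The 3 TLE3 libraries had to average 30 scaled reads or more, which 17 of the 36 members and 9100 genes in all met. The 19 others had no region (13) or fewer reads (6). The minimum counts reads of the compared libraries themselves, so the 17 are not all members. Regions also entered the sums through the lists of these libraries. A region listed in 1 library alone therefore leans to that library by selection.

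BAT against eWAT gave calls in both directions relative to the median gene, and downward ones only under the authors' scaling or when centred on regions listed in all depots. Acadl, Acad11, Hadha and Acaa1b were higher in BAT, 4 of 17 (23.5%, against 18.3% of all genes measured), though all 4 ratios were below 0 under the authors' own scaling and lost their call when centred on regions listed in all depots. Hadha had the highest ratio, 1.47 (0.49 to 2.36), and had no region listed in eWAT. Acadl had 1.00 (0.46 to 1.51), in part from its regions listed in BAT alone. Its strongest region, listed in all depots, had 0.50 (−0.33 to 1.25) and would not be called. Acadsb at −1.04 (−1.90 to −0.30) and Hadh at −1.53 (−3.17 to −0.27) were lower in BAT, 2 of 17 (11.8%, against 15.8%), and stayed below 0 under the 3 other scalings, though Acadsb lost its call within 10 kb. Neither gene had a region listed in BAT. Under the authors' scaling 0 members were higher and 12 lower, where 1.36% and 81.6% of all genes were called. Centred on regions listed in all depots, 0 were higher and 4 lower, against 4.80% and 49.3%. The median member stood at 0.15, against 0.00 for all genes and an interquartile range of −0.70 to 0.57. Cpt1a, at 0.00 (−0.47 to 0.45), lay at the median gene. Within 10 kb 3 members were called, and with a minimum of 100 scaled reads 2 were, each time out of fewer than 17 measured. The share of all genes called was not worked out for these settings, so the lower counts do not describe the members.

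BAT against iWAT, which shares the BAT library, gave mostly upward calls relative to the median gene, and mostly downward ones under the authors' scaling or when centred on regions listed in all depots. Acadl, Acad11, Hadha, Ech1, Acaa1b and Fabp3 were higher in BAT, 6 of 17 (35.3%, against 21.8%). Fabp3 had the highest ratio, 1.59 (0.44 to 2.59), then Acaa1b with 1.5 (0.75 to 2.18) and Acadl with 1.42 (0.89 to 1.92). No Fabp3 region was listed in iWAT, and the strongest Acadl region alone had 0.83 (0.01 to 1.56). Under the authors' scaling Acadl, Acad11, Hadha and Ech1 were below 0, and Acaa1b at 0.01 and Fabp3 at 0.10 were no longer called. That scaling called 0 members higher and 9 lower, against 1.73% and 78.1% of all genes. Centred on regions listed in all depots, 1 was higher and 6 lower, against 5.49% and 49.9%. Acadl kept its upward call there at 0.60, in part from its regions listed in BAT alone. Etfa was lower in BAT at −1.60 (−3.06 to −0.46), 1 of 17 (5.88%, against 15.6%), but with regions up to 100 kb it turned to 0.83. The median member stood at 0.35. With a minimum of 100 scaled reads only Acadl was called, out of fewer than 17 measured, and the share of all genes was not worked out.

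Between the white depots few members differed. In eWAT against iWAT, Fabp3 was higher at 1.04 (0.48 to 1.60), 1 of 17 (5.88%, against 14.9%), with 59.2 scaled reads in eWAT and 25.8 in iWAT. No Fabp3 region was listed in iWAT. Etfa was lower at −0.92 (−1.27 to −0.57), 1 of 17 (5.88%, against 19.2%), with 83.9 and 141, but within 100 kb the ratio turned to 0.10. Acadsb, at 0.57 (0.33 to 0.81), missed the fold limit narrowly and was called under the 3 other scalings. The median member stood at 0.09, with all 17 between −0.92 and 1.04. Cpt1a was at −0.15 (−0.33 to 0.03), although its single regions ran from −1.83 (−2.52 to −1.19) at 22.1 kb to 0.48 (0.02 to 0.94) at 30.3 kb.

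**Figure D4:**
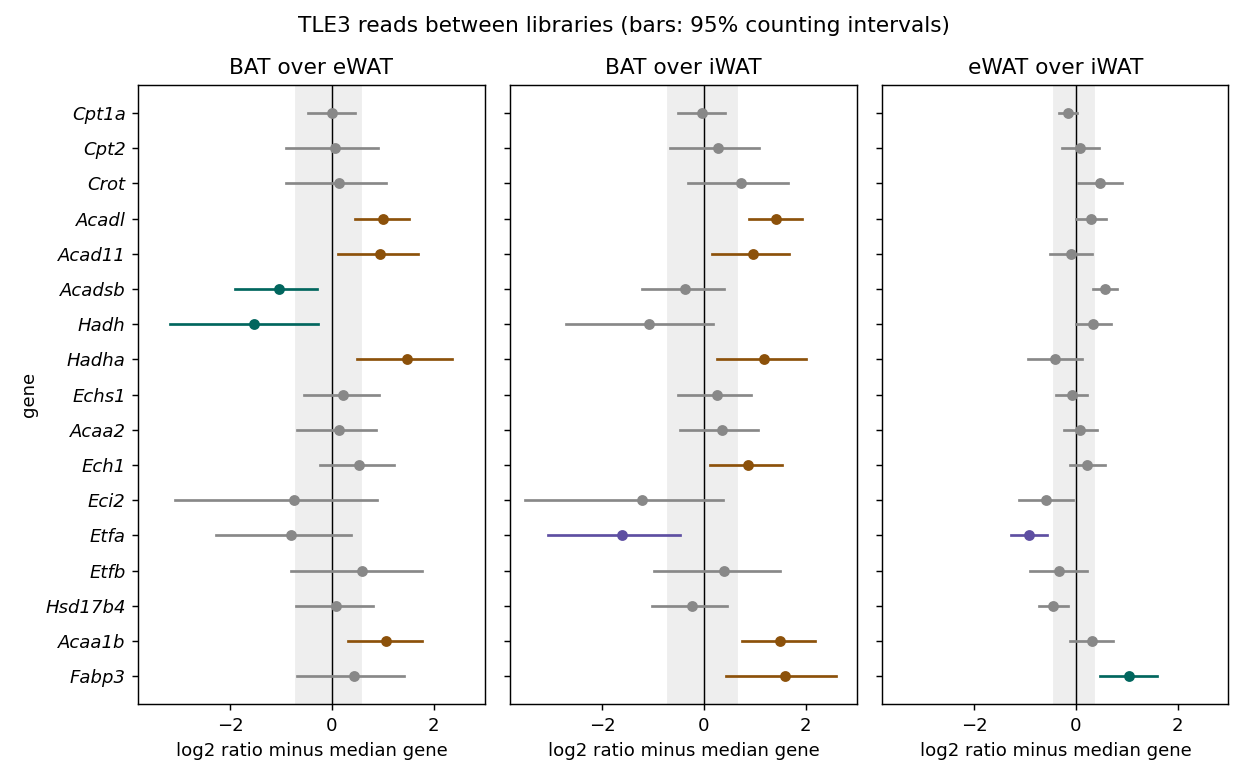
Log2 ratio minus the median gene's for the 17 members measured, for BAT over eWAT, BAT over iWAT and eWAT over iWAT, with 95% counting intervals as bars and the interquartile range of all 9100 genes as a grey band. Called members are coloured by the library that is higher, and Acadl, Acad11, Hadha and Acaa1b stand to the right in both BAT panels, although under the authors' scaling these ratios, other than that of Acaa1b over iWAT, were below 0.

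Absence from a list did not mean absence of reads. Of the 41 member regions not listed in BAT, 9 still had at least 15 scaled reads there and 6 had 0. The median over the 41 was 11.1. In eWAT 9 regions were not listed, of which 4 had at least 15 scaled reads, and in iWAT 18, of which 7 did. At each of these the library's value was under 10 times the input, which no listed region was. Over all member regions the ratio of TLE3 to input was 8.35 for BAT, 20 for eWAT and 17.6 for iWAT. The only input came from iWAT, so the other depots have no input of their own here. The limits of 15 scaled reads and 10 times the input were read from the lowest listed values and are stated in no source. If they were used to make the lists, the ratio was fixed in part by that choice.

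Other genes of fatty acid handling were read from a further list of 41, of which 32 had a region. Listed regions stood at 21 of them in BAT (51.2%, against 21.4% of protein-coding genes), 31 in eWAT (75.6%, against 46.0%) and 24 in iWAT (58.5%, against 42.4%). Relative to the median gene, 8 of the 24 with enough reads were higher in BAT over eWAT (33.3%, against 18.3% of all genes) and 1 was lower (4.17%, against 15.8%). In BAT over iWAT 11 were higher (45.8%, against 21.8%) and 1 was lower (4.17%, against 15.6%). Under the authors' scaling most BAT calls were downward, for these genes as for all genes. Over eWAT 1 was higher and 16 lower (4.17% and 66.7%, against 1.36% and 81.6% of all genes). Over iWAT 3 were higher and 14 lower (12.5% and 58.3%, against 1.73% and 78.1%). Centred on regions listed in all depots, the counts over eWAT were 3 and 6 (12.5% and 25.0%, against 4.80% and 49.3%). Over iWAT they were 5 and 4 (20.8% and 16.7%, against 5.49% and 49.9%). In eWAT over iWAT 4 were higher (16.7%, against 14.9%) and 2 lower (8.33%, against 19.2%). Acsl1, which activates fatty acids for oxidation or storage, had 166 (BAT), 470 (eWAT) and 296 (iWAT) scaled reads. Abcd2, a peroxisomal acyl-CoA transporter, had 155 (BAT), 403 (eWAT) and 362 (iWAT). Slc25a20, the translocase between the CPT enzymes, had no region. Among the peroxisomal genes of alpha oxidation and related steps, Nudt7, a coenzyme A hydrolase, had 88.5 (BAT), 205 (eWAT) and 177 (iWAT), and Phyh, the phytanoyl-CoA hydroxylase, had 27.6 (BAT), 110 (eWAT) and 135 (iWAT) at 1 region.

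Pdk4, a kinase that restrains pyruvate use, had 218 (BAT), 367 (eWAT) and 334 (iWAT) scaled reads over 10 regions. Acaca, an acetyl-CoA carboxylase that makes malonyl-CoA, had 71.9 (BAT), 163 (eWAT) and 200 (iWAT). Bdh1, an enzyme of ketone bodies, had 60.8 (BAT), 52.1 (eWAT) and 37.8 (iWAT), and Pcca, a propionyl-CoA carboxylase subunit, had 71.9 (BAT), 176 (eWAT) and 298 (iWAT). The related dehydrogenase Ivd, of leucine breakdown, had 69.1 (BAT), 96.3 (eWAT) and 141 (iWAT), and Acad8, of valine breakdown, had 13.8 (BAT), 30.9 (eWAT) and 32.1 (iWAT). All 9 regulators of the pathway had regions, against 51.6% of protein-coding genes. Listed regions stood at 5 regulators in BAT, 9 in eWAT and 7 in iWAT. Pparg, the target of rosiglitazone, had 525 (BAT), 1239 (eWAT) and 1161 (iWAT), and Ppargc1a, the PGC-1α coactivator, had 144 (BAT), 325 (eWAT) and 265 (iWAT).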

How the data were processed

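The mm9 build and the tools STAR and HOMER are named, per the submitters' processing notes, with no version or role. How reads were aligned and regions called is not stated in the labels or files. The deposited values are a signal, reads per region of 230 bases on a common library scale set by the authors. In each library 100% of values were whole multiples of 1 read within 0.1 read, which gave back the reads. If the scale was 10 M reads, which no source states, depth was 3.62 M in BAT, 11.3 M in eWAT, 19.0 M in iWAT and 15.4 M in the input.

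The 3 lists were joined by region identifier, with 0 duplicates within a list. Per gene, regions within 50 kb were summed. Log2 ratios carry exact Clopper-Pearson 95% intervals on the reads and compare libraries, not depots, so no p-value is given. The ratio script was tested on simulated data. By rule, values in every library were given for members averaging 100 scaled reads or more, called members and each member's strongest region, and for the 2 highest genes of each other list of the pathway; further members' values were added after they were seen. The genes, lists and rules were chosen with earlier results of these data known. Protein-coding genes were matched by gene ID to RefSeq (GRCm38.p6). Python 3.11.15, pandas 2.3.3, scipy 1.17.1 and matplotlib 3.10.9 were used.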

Additional observations from a re-analysis of the deposited data

How the results depend on the processing

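No paired analysis was possible because each group has 1 library, and for the same reason none was left out. Of the member ratios under the alternatives, 240 kept their sign, 49 turned it and 5 stood at 0.00 in one of both. The turned ones include 10 of called members, given at the end, and 39 of members not called. With 30 scaled reads required in a region's own library, members listed were 4 in BAT and 11 in iWAT. In lists of equal size they were 9 in eWAT and 5 in iWAT. For BAT over eWAT, called members numbered 12 under the authors' scaling (0 higher, 12 lower), 4 centred on regions listed in all depots (0 higher, 4 lower), 3 within 10 kb and 2 at a minimum of 100. The median ratio was -1.39 under the authors' scaling, -0.64 centred on regions listed in all depots, 0.42 within 10 kb, 0.43 within 100 kb and 0.57 with no minimum. For BAT over iWAT, against 6 higher and 1 lower, 0 were higher and 9 lower under the authors' scaling, 1 was higher and 6 lower centred on common regions, and 1 member was called at a minimum of 100. The median was -1.14 under the authors' scaling, -0.48 centred on common regions, 0.74 within 100 kb, 0.85 with no minimum and -0.15 at a minimum of 100. For eWAT over iWAT, called members numbered 4 under the authors' scaling, 4 with no minimum, 4 with input subtracted, 1 at a minimum of 100 and 1 at a fold limit of 2. The median was 0.26 under the authors' scaling, 0.17 within 10 kb and -0.05 at a minimum of 100. Fewer members were measured within 10 kb and at a minimum of 100, and more with no minimum. Among these alternatives, shares of all genes called were worked out for the BAT comparisons alone, under the authors' scaling and centred on common regions. The other counts of called members stand without such a share and are not a result about the members. Under the authors' scaling BAT over eWAT reversed to -0.54 for Acadl, -0.59 for Acad11, -0.07 for Hadha and -0.47 for Acaa1b. BAT over iWAT reversed to -0.07 for Acadl, -0.52 for Acad11, -0.30 for Hadha and -0.62 for Ech1. Within 100 kb Etfa reversed to 0.83 for BAT over iWAT and 0.10 for eWAT over iWAT, since 6 regions beyond 50 kb then enter its sum. The authors' scaling differs from the main one by the median gene's ratio alone. The cause of the other changes was not tested. The BAT library limits the intervals, with 0 reads allowing 8.30 scaled reads there, against 2.65 in eWAT and 1.58 in iWAT.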

Other observations

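Beyond 50 kb, 3 members had further regions for which they were the nearest gene. Etfa had 6, which summed to 166 (BAT), 259 (eWAT) and 149 (iWAT) scaled reads, more than its regions inside 50 kb in each library. Eci2 had 3, with 80.2, 117 and 95.1 in the same order, also more than inside 50 kb. Acaa2 had 1, with 8.30, 10.6 and 28.9. The farthest member region inside the limit lay 42673 bases from its start site and the nearest outside it 68665 bases.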
